A study of Mus musculus with 28 samples.

Results

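Marrow stromal cells were examined at 8 weeks of age in 2 scRNA-seq libraries, 1 of the Prx1-Cre line and 1 of the Osx-Cre line. Among cells with 200 or more genes detected, a cell was taken as a marrow stromal cell when Adipoq, Cxcl12, Lepr, Lpl, Hp, Kng1 and Esm1 together supplied at least 1% of its UMIs (unique molecular identifiers, each standing for 1 captured transcript). This rule selected 1128 of the 1775 cells at 8 weeks, out of 6205 cells in the 4 scRNA-seq libraries of the series. In the Prx1-Cre library 570 of 993 cells were selected (57.4%, exact Clopper-Pearson 95% interval 54.3% to 60.5%), and in the Osx-Cre library 558 of 782 cells (71.4%, 68.0% to 74.5%). Intervals on cells and UMIs cover counting error only. Because each line was represented by 1 library, no difference had a replicate check and no p-value is given.

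The series followed skeletal cells of mice in which Zmpste24 (Z24), the protease that matures lamin A, was deleted to bring on premature aging. The 8-week mice were C57BL/6 and carried Prx1-Cre or Osx-Cre together with the Rosa26 Ai9 allele, from which Cre switches on the red protein tdTomato for good. Marrow plugs and crushed bone were digested and pooled, and Ai9+ cells without CD45, Ter119 and CD31 (blood cell, red cell and endothelial surface proteins) were sorted into the 10X Genomics droplet system. Prx1-Cre is driven by a limb bud enhancer of Prrx1, and Osx-Cre by regulatory sequence of Sp7 in a transgene whose carriers had malocclusion. Both are active from development, so a sorted cell need not have expressed the driver gene when it was taken. The genotype label of both 8-week libraries also names Z24fl/fl, whereas the study's methods give no Z24 allele for these mice, and how many mice entered each library is not given in the sources used here. In marrow stromal cells Zmpste24 stood at 20.1 CPM (counts per 1000000 UMIs) in Prx1-Cre, from 11 UMIs, and at 38.9 CPM in Osx-Cre, from 20 UMIs. At 16 weeks, cells selected by the same rule held 20.2 CPM of Zmpste24 in Prx1-Cre control mice (Z24fl/+) and 3.56 CPM in Prx1-Cre; Z24fl/fl (CKO) mice.

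Marrow stromal cells, also called Cxcl12-abundant reticular or leptin receptor-positive cells, lie along the sinusoids of the marrow. They secrete the chemokine and the growth factors that hold blood stem cells and B cell precursors in place, and they can give rise to marrow adipocytes and to osteoblasts. Of the genes used for the selection, Cxcl12 encodes that chemokine, Lepr the leptin receptor, Adipoq the adipocyte hormone adiponectin and Lpl the enzyme that frees fatty acids from lipoproteins. Hp encodes the haemoglobin binding protein haptoglobin, Kng1 the kinin precursor kininogen and Esm1 a secreted proteoglycan.

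The share of UMIs from the 7 genes separated the cells into a group near 0 and a broad group around 4%. Its median was 4.03% in the Prx1-Cre marrow stromal cells (quartiles 3.14% and 4.91%) and 4.11% in the Osx-Cre ones (3.09% and 5.07%), against 0.0441% and 0.0667% in the other cells. Few cells lay near the threshold. The lowest marrow stromal cell held 1.02% in Prx1-Cre and 1.03% in Osx-Cre, and the highest of the other cells 0.997% and 0.967%. Between 0.5% and 1% there were 19 and 13 cells, and between 1% and 1.5% there were 14 and 10.

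**Figure D1:**
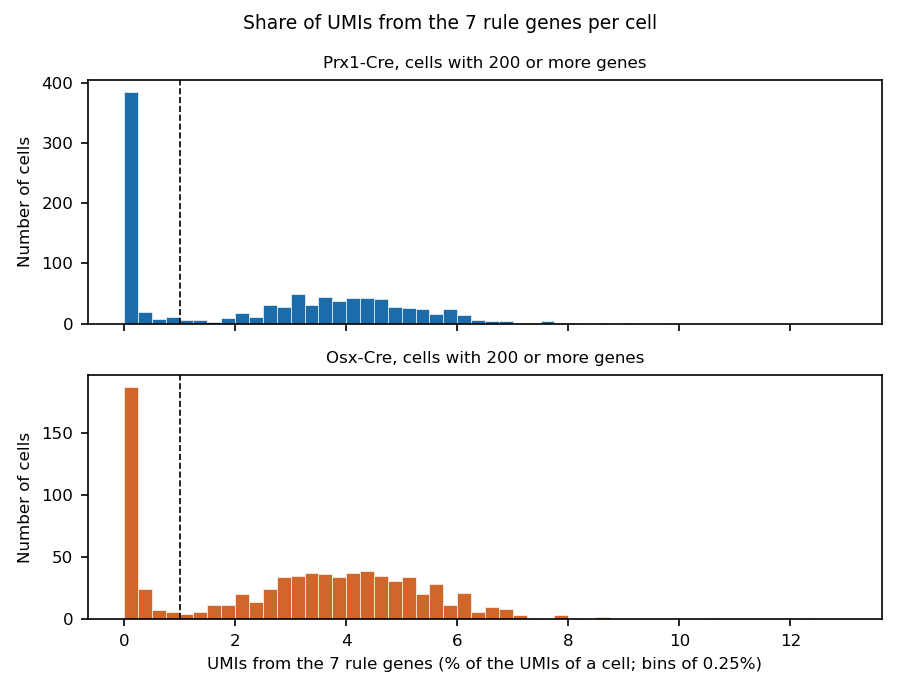
Number of cells (vertical axis) by the percentage of a cell's UMIs that came from the 7 selection genes (horizontal axis, bins of 0.25%), in the Prx1-Cre library above and the Osx-Cre library below; the dashed line is the 1% threshold. Most of the other cells sit in the lowest bin (385 of the 423 in Prx1-Cre) and the marrow stromal cells form a separate hump with a median of 4.03% in Prx1-Cre and 4.11% in Osx-Cre.

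The marrow stromal cells were shallower than the rest. They held a median of 902 UMIs and 546 genes in Prx1-Cre and 853 UMIs and 531 genes in Osx-Cre, while the other cells held 1693 UMIs and 791 genes, and 1523.5 UMIs and 699 genes. Their summed UMIs came to 546129 of 1554098 in Prx1-Cre (35.1%) and 514051 of 1040275 in Osx-Cre (49.4%). The median mitochondrial share was 1.86% and 1.70% in marrow stromal cells and 2.10% and 2.2% in other cells. With members chosen on cells thinned to 400 UMIs, 574 and 562 cells were selected, and 684 genes were higher and 373 lower in them than in other cells, against 668 and 385 in the comparison below.

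As chosen by the rule, the 7 genes were high in these cells, and their values are a description of the selection. Cxcl12 led at 21797 CPM in Prx1-Cre (exact Poisson 95% interval 21407 to 22192) and 21037 CPM in Osx-Cre (20642 to 21437), with 375 and 458 CPM in the other cells. It was found in all 570 and all 558 marrow stromal cells and supplied 53.0% and 50.4% of the UMIs that the rule counted. Hp followed at 12446 and 14166 CPM, against 209 and 257 CPM in the other cells, and supplied 30.3% and 34.0%. The remaining genes were lower, from 2380 CPM down to 669 CPM. Lpl stood at 2380 and 2153 CPM (59.5 and 60.8 in other cells) and Adipoq at 2219 and 2105 CPM (37.7 and 43.7). Lepr, whose product often names the population, stood at 789 and 669 CPM (15.9 and 28.5 in other cells). At this depth a UMI of Lepr was caught in 291 of 570 and 238 of 558 marrow stromal cells (51.1% and 42.7%), or in 31.8% and 28.2% once each cell was thinned to 500 UMIs. Esm1 reached 818 and 753 CPM and Kng1 670 and 817 CPM, and reads of Kng1 may be shared with its near copy Kng2.

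Cxcl12 was not restricted to the selected cells by presence alone. Of the other cells, 170 of 423 (40.2%, interval 35.5% to 45.0%) and 116 of 224 (51.8%, 45.0% to 58.5%) held at least 1 UMI of it, and 13.7% and 24.1% at 500 UMIs. Cells with chondrocyte markers were taken here to lack Cxcl12. A UMI of it was held by 41.1% and 54.2% of them at a median depth of 3133 and 3173.5 UMIs. At 500 UMIs these shares were 5.70% and 16.9%. By level, Cxcl12 stood at 260 and 241 CPM in these cells, at 225 and 511 CPM in cells with osteoblast markers, and at 1102 and 1624 CPM in the 79 and 38 cells that no list named. A share of cells with a UMI at or below that of the cells with chondrocyte markers is not told apart from background here. The source of such UMIs was not tested. Cxcl12 is a selection gene, so its share in marrow stromal cells was not compared with these.

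Marrow stromal cells were checked against markers of the other cells that the digest and the sort could hold. Chondrocyte markers were 1% or more of the UMIs in 0 of 570 and 4 of 558 marrow stromal cells. The interval for 0 of 570 reaches up to 0.645%. Periosteal, endothelial, mature adipocyte and Schwann cell markers reached 1% in 0 cells of either library. Pericyte markers did so in 0 and 1 cells, and B lymphoid markers in 0 and 0. Myeloid markers did so in 2 and 2 cells, erythroid in 6 and 3, and megakaryocyte in 0 and 1. Osteoblast markers reached 1% in 233 (40.9%) and 172 (30.8%) marrow stromal cells, but in 1 and 3 once Ibsp, a bone matrix sialoprotein, was left out of that list. The mature adipocyte genes Plin4, Cidec, Lep, Retn, Adig and Ucp1 had no UMI in the marrow stromal cells of either library, which at this depth allows up to 5.49 CPM in Prx1-Cre and 5.84 CPM in Osx-Cre. A Prx1-Cre and an Osx-Cre cell shared a barcode in 4 cases, of which 3 and 4 were marrow stromal cells.

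Sequence around the start of 3 genes that were high in both libraries is shown, chosen after the motif search because each window held a match. Windows ran from 250 bases before to 50 bases after the RefSeq start (GRCm38.p6), printed 5′ to 3′ on the strand of the gene. The leptin receptor window, at chr4:101717656-101717955 (+), and the kininogen 2 window, at chr16:23029052-23029351 (−), are shown with a match to the C/EBP motif in capitals, C/EBPα being the adipogenic factor listed below. The window of B2m, the invariant chain of MHC class I, at chr2:122147437-122147736 (+), is shown with a match to an interferon response element in capitals.
Lepr: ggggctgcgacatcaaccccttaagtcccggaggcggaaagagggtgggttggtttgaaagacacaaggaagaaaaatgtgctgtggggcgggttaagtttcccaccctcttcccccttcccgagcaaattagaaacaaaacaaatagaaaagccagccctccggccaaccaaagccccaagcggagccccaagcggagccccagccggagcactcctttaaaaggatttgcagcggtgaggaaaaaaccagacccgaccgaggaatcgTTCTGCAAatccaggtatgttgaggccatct
Kng2: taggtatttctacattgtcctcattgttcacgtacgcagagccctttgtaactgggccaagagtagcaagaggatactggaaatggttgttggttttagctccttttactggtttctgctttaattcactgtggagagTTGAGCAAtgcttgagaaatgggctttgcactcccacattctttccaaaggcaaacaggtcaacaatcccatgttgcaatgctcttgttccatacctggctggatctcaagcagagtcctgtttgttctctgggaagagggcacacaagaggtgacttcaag
B2m: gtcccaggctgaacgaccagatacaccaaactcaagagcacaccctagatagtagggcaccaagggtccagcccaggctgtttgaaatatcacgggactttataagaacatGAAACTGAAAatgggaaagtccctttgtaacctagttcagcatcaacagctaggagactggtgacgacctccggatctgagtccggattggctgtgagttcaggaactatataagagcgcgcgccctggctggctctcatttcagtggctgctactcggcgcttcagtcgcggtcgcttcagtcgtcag
The capitals start at base 270 of the window in Lepr, which lies after the RefSeq start, base 139 in Kng2 and base 112 in B2m, and those of Lepr and Kng2 are matches on the reverse strand. Motifs were searched on both strands, and a match is a description, not a shown binding site. TTGCNNAA (C/EBP) was present in 10.8% of all 32851 windows in the table and GAAANNGAAA (interferon response element) in 3.44%. The other letters searched were TCCCNNGGGA (EBF, 0.904%), CCCNNGGG (its core, contained in the former, 13.7%), TGTGGTTT (RUNX, 1.78%) and GGGANNTTCC (NF-kB, 1.47%). TGACGTCA (CRE) was present in 1.79%, TGANTCA (AP-1) in 7.81%, TATAAA in 13.6% and CCACCC (KLF) in 31.5%. Of the 7 selection genes 4 had a window in the table. Among those 4, TTGCNNAA was present in Lepr alone, CCACCC in Cxcl12 and Lepr, and the other motifs in 0.

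The marrow stromal cells were then set against all other cells with 200 or more genes, within each library, to see what else the selected cells held in common. Ratios were taken on CPM of summed UMIs with 10 CPM added to each side, over 5386 genes with 50 or more UMIs in all, and a gene was counted when it differed at least 2-fold the same way in both libraries. By this measure 668 genes (12.4%) were higher and 385 (7.15%) lower in marrow stromal cells. Since the cells were chosen on the same transcriptomes, these counts describe the selection and are read as no more. Within the libraries, 871 genes were higher and 521 lower in Prx1-Cre, and 1014 and 455 in Osx-Cre. The median log2 ratio of all genes was 0.20 in Prx1-Cre and 0.28 in Osx-Cre, so that a gene at a log2 ratio of 0.25 was at the centre. With groups scaled by the median ratio, 537 genes were higher and 478 lower, and the share of higher among them went from 63.4% to 52.9%. By level, Malat1, a nuclear RNA, led the marrow stromal cells with 107412 and 106629 CPM, and Cxcl12, Hp, H2-D1, Apoe, Serpine2, Gpx3, Ibsp, Cst3 and Ftl1 made up the rest of the 10 most abundant. Serpine2, a secreted protease inhibitor, stood at 9097 and 10291 CPM against 906 and 2172 CPM, and Gpx3, the secreted glutathione peroxidase, at 8666 and 9587 CPM against 2483 and 2457 CPM.

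Beyond the selection genes, the highest ratios included those of Trf, Gas6, Vcam1 and Apoe. Trf, which encodes the iron carrier transferrin, stood at 1712 and 1922 CPM in marrow stromal cells of Prx1-Cre and Osx-Cre, and at 24.8 and 70.3 CPM in the other cells (49.5- and 24.1-fold). Gas6, a ligand of the TAM receptors, stood at 2979 and 3149 CPM against 91.3 and 103 CPM (29.5- and 28.1-fold). Vcam1, an adhesion molecule for blood cells, stood at 1664 and 1675 CPM against 46.6 and 57.0 CPM (29.6- and 25.1-fold). The lines lay side by side for these genes, and far above their other cells. Apoe, the apolipoprotein, was the most abundant of the group at 9219 and 10641 CPM, compared with 436 and 464 CPM (20.7- and 22.5-fold). Il1rn, which encodes the interleukin 1 receptor antagonist, held 247 and 211 UMIs (452 and 410 CPM) and 1 and 7 UMIs in the other cells. Cxcl14, a chemokine, was at 2943 and 2377 CPM against 137 and 93.1 CPM. The rest of the 15 highest were Kng2, Dpep1, Gdpd2, Il34, Fbln5, Igfbp5, Serpina12, Serping1 and Igfbp4, at ratios between 15.2-fold (Igfbp5 in Prx1-Cre) and 40.4-fold (Gdpd2 in Prx1-Cre).

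**Figure D2:**
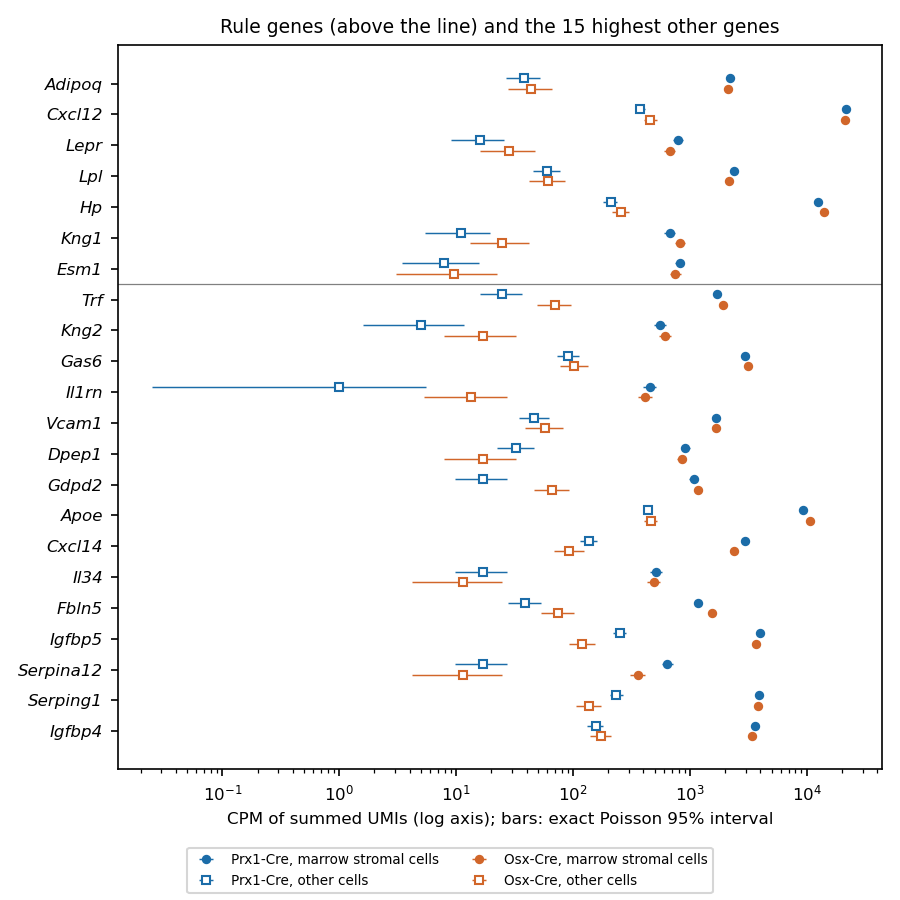
CPM of summed UMIs on a log axis for the 7 selection genes (above the line) and the 15 other genes with the highest ratios, with filled circles for marrow stromal cells, open squares for other cells, blue for Prx1-Cre, orange for Osx-Cre and bars for exact Poisson 95% intervals. The filled circles of both lines lie close together and to the right of the squares for each gene, as for Trf (1712 and 1922 CPM against 24.8 and 70.3 CPM).

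Kng1, Kng2 and Adipoq are neighbours on chromosome 16, a point chosen after their values were seen. The annotation of the files' build (GRCm38) places Kng2 at chr16:22985854-23029482, Kng1 at chr16:23057865-23082078 and Adipoq at chr16:23146536-23158028, with Eif4a2 and Rfc4 between the last 2. Kng2 held 555 and 613 CPM in marrow stromal cells and 4.96 and 17.1 CPM in other cells (37.8- and 23.0-fold). Eif4a2, a general translation factor, stood at 209 and 216 CPM against 142 and 133 CPM, and Rfc4 at 3 and 4 UMIs. Kng1 and Adipoq were used for the selection and Kng2 may share reads with Kng1, so these levels describe the interval and are read as no more.

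At the other end stood bone and cartilage matrix. Bglap, which encodes osteocalcin, was at 471 and 949 CPM in marrow stromal cells and at 36184 and 46416 CPM in the other cells (75.3- and 48.4-fold lower), and its near copy Bglap2 was 81.0- and 46.0-fold lower. Col2a1, the cartilage collagen, was at 297 and 284 CPM against 12842 and 13804 CPM (41.9- and 47.0-fold lower). Matn3, Col9a1, Mia, Hapln1, Scrg1, Col9a3 and Col9a2, all genes of cartilage, made up the rest of the 10 lowest. The small amount of Bglap left in marrow stromal cells was in 35.1% and 30.1% of them. At 500 UMIs its share was 22.1% and 16.5% in marrow stromal cells (median depth 902 and 853 UMIs). It was 29.1% and 40.8% in cells with chondrocyte markers (3133 and 3173.5 UMIs), which were taken here to lack it. By share of cells Bglap was therefore not told apart from background, and the source of these UMIs was not tested. The summed level was not spread evenly, since 271 of the 488 Bglap UMIs in Osx-Cre came from 1 cell of 2533 UMIs, without which Bglap stood at 424 CPM (107-fold lower than in other cells). The same cell held 178 of the 265 UMIs of Bglap2, which was 134-fold lower without it.

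Genes of the marrow stromal program that the rule did not use were all higher. Of 14 such genes 14 were tested and 14 were higher in both libraries, with a median log2 ratio of 3.48. Kitl, which encodes stem cell factor, stood at 573 and 654 CPM and at 14.9 and 36.1 CPM in other cells (23.4- and 14.4-fold). Ebf3, a transcription factor of this lineage, stood at 247 and 290 CPM against 5.95 and 17.1 CPM (16.1- and 11.1-fold). Foxc1, another such factor, stood at 350 and 356 CPM against 54.6 and 53.2 CPM. The smallest ratio was that of the growth factor receptor Pdgfra, at 101 and 99.2 CPM against 34.7 and 17.1 CPM (2.48- and 4.03-fold), and the largest that of Gas6.

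The list of blood cell niche signals overlapped the stromal list in Kitl, Vcam1 and Gas6, and 18 genes in all stood in more than 1 of the 16 lists of gene groups, so their counts are not independent. Of 20 listed genes 15 had enough UMIs, 12 were higher and 2 were lower, with a median log2 ratio of 3.28. Il7, the growth factor of B cell precursors, held 39 and 32 UMIs in marrow stromal cells (71.4 and 62.3 CPM) and 1 and 0 UMIs in the others, where 0 UMIs allows up to 5.70 CPM. Csf1, the macrophage growth factor, stood at 427 and 399 CPM against 22.8 and 47.5 CPM (13.3- and 7.11-fold). Il34, which shares its receptor, stood at 511 and 492 CPM against 16.9 and 11.4 CPM. The vascular ligand Angpt1 held 41 and 52 UMIs in marrow stromal cells and 4 and 0 in the others. The chemokine Ccl19 held 113 and 78 UMIs, and 3 and 0 in the others. The 2 lower genes were Ptn (pleiotrophin) at 12.8 and 7.78 CPM against 88.3 and 41.8 CPM, and Tgfb1 at 33.0 and 29.2 CPM against 90.3 and 120 CPM. Thpo, Dll4 and Sele had no UMI in marrow stromal cells.

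Among adipogenic and lipid genes the regulators of the C/EBP family, Pparg and Apoe were higher. Of 25 adipogenic and lipid genes 9 had enough UMIs, and the 5 higher ones were Pparg, Cebpa, Cebpb, Cebpd and Apoe, with a list median of 1.64. Cebpa, the gene of C/EBPα, stood at 156 and 146 CPM against 5.95 and 3.80 CPM, the latter 6 and 2 UMIs. Pparg, the central adipogenic receptor, was low at 47.6 and 58.4 CPM, from 26 and 30 UMIs, against 4 and 1 UMIs in other cells. Plin2, a lipid droplet protein, stood at 58.6 and 48.6 CPM against 23.8 and 20.9 CPM, and the desaturase Scd1 at 29.3 and 21.4 CPM against 66.5 and 81.7 CPM. Plin4, Cidec, Lep and Retn were the list genes with no UMI.

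Osteogenic genes did not move as one group. Of 22 listed genes 21 had enough UMIs, 2 were higher (Tnc and Limch1), 10 were lower and 9 were neither, with a median log2 ratio of −1.31. Col1a1, the main bone collagen gene, stood at 260 and 564 CPM against 13786 and 20204 CPM (51.1- and 35.2-fold lower). The Osx-Cre cell with most Bglap also held 142 of the 290 Col1a1 UMIs, and without it Col1a1 stood at 289 CPM (67.5-fold lower). Sp7, which marks committed osteoblast precursors and whose sequence drives Osx-Cre, stood at 31.1 CPM in each line, against 85.3 and 98.8 CPM. Alpl, the phosphatase of mineralizing cells, stood at 67.7 and 48.6 CPM against 344 and 426 CPM. Ibsp was the exception in level. It was among the 10 most abundant genes of the marrow stromal cells at 8403 and 6820 CPM, compared with 3469 and 4261 CPM in other cells (2.42- and 1.60-fold, so not counted as higher). Runx2, the osteoblast regulator, stood at 146 and 130 CPM against 76.4 and 125 CPM. Spp1, which encodes osteopontin, stood at 5306 and 5326 CPM against 5639 and 16109 CPM. Limch1, an actin-associated protein, stood at 212 and 379 CPM against 38.7 and 114 CPM (4.57- and 3.14-fold), with a log2 ratio of 0.91 and thus under 2-fold without Cxcl12 in the rule or as the mean of per-cell CPM.

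Ibsp was not spread evenly among the other cells. It stood at 10353 and 8266 CPM in cells with osteoblast markers of Prx1-Cre and Osx-Cre, at 1186 and 1397 CPM in those with chondrocyte markers and at 162 CPM in the 73 Prx1-Cre cells with periosteal markers. At 500 UMIs, 87.9% and 73.8% of marrow stromal cells of Prx1-Cre and Osx-Cre held a UMI of it, and 15.2% and 21.1% of cells with chondrocyte markers. Since Ibsp is itself an osteoblast marker, the osteoblast-like cells were chosen partly on it.

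Transcription factors of limb and stromal mesenchyme were mostly higher. Of 22 listed, 15 had enough UMIs, 12 were higher and 1 lower, with a median log2 ratio of 1.97. Ebf1, the most abundant, stood at 1132 and 1296 CPM against 212 and 224 CPM (5.14- and 5.57-fold). It was also found at 1613 and 3018 CPM in the 15 and 15 cells with pericyte markers, so it did not set marrow stromal cells apart from those. Runx1, better known from blood cells, stood at 302 and 290 CPM against 27.8 and 39.9 CPM (8.26- and 6.01-fold). Prrx1, whose enhancer drives Prx1-Cre, stood at 183 and 169 CPM against 67.5 and 51.3 CPM. Klf4 was the gene at least 2-fold lower, at 34.8 and 15.6 CPM against 254 and 209 CPM. Of 17 Hox genes of limb 7 had enough UMIs, and Hoxa9 and Hoxa10 were higher and none lower, with a median of 0.44. Both were under 2-fold without Cxcl12 in the rule (log2 ratios of 0.95 and 0.84) and with 50 CPM added (0.72 and 0.74), and Hoxa10 also with a 2% threshold (0.98) and with median ratio scaling (0.96).

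Complement and acute phase genes were higher as a list: 15 of 19 had enough UMIs, 13 were higher and 0 lower, with a median log2 ratio of 3.0. Serping1, the inhibitor of the first complement component, led at 3875 and 3813 CPM against 235 and 137 CPM (15.8- and 26.0-fold). C1ra, a protease of that component, stood at 463 and 527 CPM against 36.7 and 13.3 CPM, and C4b at 432 and 523 CPM against 61.5 and 24.7 CPM. Serpina3g, a protease inhibitor, stood at 410 and 430 CPM against 10.9 and 17.1 CPM (20.1- and 16.2-fold).

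Interferon response genes showed a like picture at lower levels. Of 24 listed, 15 had enough UMIs, 14 were higher and 0 lower, with a median of 2.48. The guanosine triphosphatase gene Iigp1 stood at 223 and 216 CPM against 5.95 and 3.80 CPM, the latter 6 and 2 UMIs. Isg15, a ubiquitin-like modifier, stood at 189 and 222 CPM against 10.9 and 26.6 CPM (9.50- and 6.33-fold). Irf1, the regulator with the smallest ratio, stood at 60.4 and 37.0 CPM against 11.9 and 22.8 CPM. Cells in which these genes were 1% or more of the UMIs numbered 14 of 570 (2.46%) and 18 of 558 (3.23%), and 1 and 0 among the other cells. The MHC class I genes H2-D1, at 9479 and 10622 CPM against 766 and 1190 CPM, and B2m, at 5458 and 5130 CPM against 881 and 1203 CPM, were among the abundant genes, with reads of H2-D1 possibly shared with related class I genes.

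Among chemokines and cytokines 9 of 20 genes had enough UMIs, 7 were higher and 1 lower, with a median of 2.63. Tnfsf11, the osteoclast factor RANKL, stood at 69.6 and 42.8 CPM against 8.93 and 9.50 CPM. Tnfrsf11b, its decoy receptor osteoprotegerin, was the lower gene and held 2 and 5 UMIs in marrow stromal cells, against 65.5 and 47.5 CPM in the others. Cxcl2 had no UMI.

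Of 27 BMP and Wnt signals and inhibitors 17 had enough UMIs, 11 were higher and 1 lower, with a median of 2.30. Fst, the activin binding protein follistatin, stood at 564 and 621 CPM against 29.8 and 15.2 CPM (14.4- and 25.02-fold). Bmp4, a ligand, stood at 271 and 350 CPM against 9.92 and 9.50 CPM (14.1- and 18.5-fold). Grem1, a BMP inhibitor, stood at 185 and 179 CPM, against 3 and 6 UMIs in the other cells. Sfrp4, a secreted Wnt inhibitor, was the most abundant at 1743 and 2142 CPM against 189 and 87.4 CPM. The lower gene, Bmp3, held 2 UMIs in each library.

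Of 11 genes of the insulin-like growth factor axis 9 had enough UMIs, 6 were higher and 1 lower, with a median of 2.25. Igfbp5, a binding protein, stood at 3955 and 3690 CPM against 250 and 120 CPM (15.2- and 28.5-fold). Igf1, the ligand, stood at 311 and 290 CPM against 86.3 and 34.2 CPM (3.34- and 6.78-fold). Pappa, the protease that cleaves binding proteins, stood at 478 and 430 CPM against 15.9 and 26.6 CPM (18.9- and 12.0-fold). Igfbp6, a periosteal marker, was the lower gene and held 14 and 0 UMIs in marrow stromal cells.

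Stromal extracellular matrix genes were split. Of 30 listed 25 had enough UMIs, 8 were higher and 7 lower, with a median of −0.18. The basement membrane collagens Col4a1 (198 and 280 CPM against 37.7 and 58.9 CPM) and Col4a2 (117 and 121 CPM against 29.8 and 38.0 CPM) were among the higher ones. Fbln5, an elastic fibre protein, had the largest ratio, at 1176 and 1539 CPM against 38.7 and 74.1 CPM (24.3- and 18.4-fold). Fn1 (fibronectin) had the smallest, at 62.3 and 17.5 CPM against 2012 and 564 CPM. Dcn (decorin) was 9.28- and 4.05-fold lower.

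The remaining lists held few or no higher genes. Of 20 immediate early and dissociation genes 19 had enough UMIs, 0 were higher and 6 lower, with a median of −0.62. Atf3, a stress factor, held 7 and 2 UMIs in marrow stromal cells against 214 and 115 UMIs in the others, and Fos stood at 1901 and 1757 CPM against 3227 and 2334 CPM. Of 15 cell cycle genes 8 had enough UMIs, and 5 were lower, with a median of −1.76. Top2a, a gene of dividing cells, held 6 and 2 UMIs in marrow stromal cells. Of 10 glucocorticoid response genes 6 were tested, and Angptl4 (8.93- and 6.21-fold) was the one higher gene, with a median of 1.01. Of 10 genes of prelamin A processing 4 were tested, 0 were called and the median was 0.17.

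**Figure D3:**
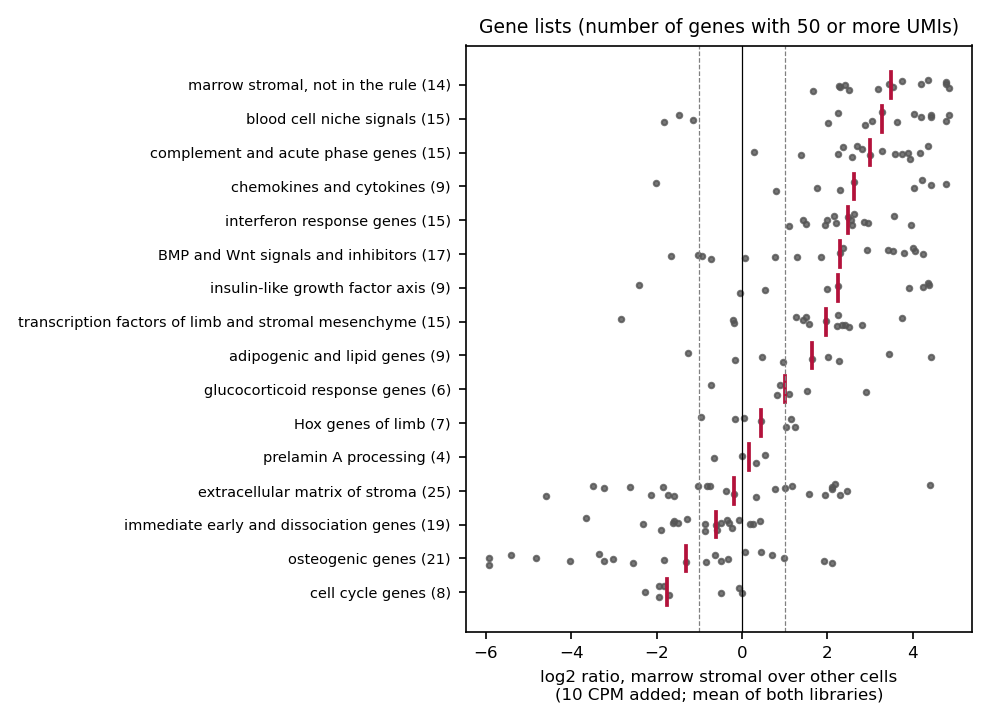
Log2 ratio of marrow stromal over other cells (horizontal axis, 10 CPM added, mean of both libraries) for each tested gene of 16 lists (rows, number of tested genes in parentheses), with red bars at the list medians and dashed lines at 2-fold. Medians run from 3.48 for stromal genes outside the rule to −1.76 for cell cycle genes, while osteogenic and extracellular matrix genes spread to both sides.

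Marker lists of other cells gave few higher genes. All 9 chondrocyte markers were lower, and of the periosteal markers 8 were tested and Prg4 and Igfbp6 were lower. The median log2 ratio of these 8 was −1.58. A call needed both libraries, and periosteal markers reached 1% of UMIs in 74 other cells of Prx1-Cre but in 1 of Osx-Cre. Of 7 osteoblast markers 5 were lower, the exceptions being Ibsp and Bglap3. Of 5 tested pericyte markers, Mylk and Notch3 were higher and Rgs5, Acta2 and Tagln lower, with Mylk at 441 and 362 CPM against 30.8 and 38.0 CPM. Of 2 tested endothelial markers Plvap was lower, and Pecam1 stood at 86.1 and 107 CPM against 48.6 and 53.2 CPM. The megakaryocyte, B lymphoid, mature adipocyte and Schwann lists had 0 tested genes.

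Blood cell RNA moved with the selection in 2 lists. The 4 tested myeloid markers (S100a8, S100a9, Ngp and Camp) and 3 of 4 tested erythroid markers (Hba-a1, Hba-a2 and Hbb-bs) were higher in marrow stromal cells. The summed myeloid list of 9 genes came to 1280 and 231 CPM in marrow stromal cells and 21.8 and 24.7 CPM in others, its most abundant gene being S100a8. Its defining marker Ptprc (CD45) held 0 and 1 UMIs, and Mpo 0. One Prx1-Cre cell of 2370 UMIs held 231 of the 260 UMIs of S100a8 and all 117 of Ngp. Without the cell with most UMIs of each gene, Ngp, Camp and S100a9 were under 2-fold in both libraries, and S100a8 was 3.97- and 3.21-fold higher. The direction of all 4 turned with a 2% threshold or without Cxcl12 in the rule, where the log2 ratio of S100a8 was −1.11 and −0.74. The erythroid list of 8 genes came to 621 and 451 CPM against 97.2 and 120 CPM, led by Hbb-bs, with Slc4a1 at 0. Hba-a1 was found in 11.9% and 9.86% of marrow stromal cells, and UMIs of Hba-a1 and Hba-a2 cannot be told apart with certainty. With the cells removed in which a blood or endothelial marker list reached 1%, 664 genes were higher and 381 lower than in other cells, among them 652 of the 668 and 379 of the 385, and 14 and 19 genes differed between the lines.

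Marrow stromal cells varied among themselves along the share by which they were chosen. They were ordered by that share within each library and divided into 4 equal groups of 139 to 143 cells, of nearly equal depth (median 885, 883, 910.5 and 952.5 UMIs in Prx1-Cre, 810, 859, 913 and 867 in Osx-Cre). The summed level of the 14 stromal genes outside the rule went from 7751 CPM in the lowest group to 10100.2 in the highest in Prx1-Cre, and from 8188 to 10132 in Osx-Cre. Complement and acute phase genes went from 6520 to 9205 CPM and from 5793 to 10101 CPM. Apoe, the apolipoprotein that made up most of the adipogenic and lipid list, went from 7247 to 10678 CPM and from 8693 to 12869 CPM. The rest of that list did not follow, at 2188, 1580, 1879 and 1884 CPM in Prx1-Cre and 1586, 1678, 1244 and 1673 CPM in Osx-Cre. Niche signals, which share Kitl, Vcam1 and Gas6 with the stromal list, went from 8341 to 11306 CPM and from 8164 to 10340 CPM. The cells were ordered by the share that selected them, so these values are a description along that share.

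As lists, osteogenic and immediate early genes ended lower than they began, though not in steady order. The osteogenic list went from 23519 CPM in the lowest group to 18237 in the highest in Prx1-Cre, and from 29324 to 17750 in Osx-Cre. The 2 groups between stood at 20588 and 21403 CPM in Prx1-Cre and at 19367.5 and 20681 CPM in Osx-Cre. In Osx-Cre 1 cell held 826 UMIs of the list in the lowest group, which stood at 23177 CPM without it. Spp1 (osteopontin) went from 7442 to 3927 CPM in Prx1-Cre and from 5753 to 4696 CPM in Osx-Cre, where the 2 groups between stood at 4954 and 5898 CPM. Alpl went from 166 to 7.22 CPM and from 112 to 30.8 CPM, the lowest of these from 1 UMI. Mmp13, a collagenase, went from 756 to 267 CPM and from 1434 to 355 CPM. Pth1r, the parathyroid hormone receptor, went from 295 to 79.4 CPM and from 320 to 147 CPM. Col1a2 in Prx1-Cre (1159 to 1184 CPM) and Runx2 in Osx-Cre (136 to 162 CPM) ended no lower than they began. Ibsp did not follow this order either, at 7370, 9124, 9497 and 7674 CPM in Prx1-Cre and 6818, 7262, 7512 and 5683 CPM in Osx-Cre. Immediate early genes went from 12472 to 8028 CPM and from 12082 to 8636 CPM, with 7044 and 6192 CPM in the group next to the highest. Interferon response genes showed no order, at 2461, 2904, 2306 and 2361 CPM and at 2556, 3064, 2730 and 3015 CPM. As summed shares of 1 total, these levels are not independent of each other, and cells of 1 library are not replicates.

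**Figure D4:**
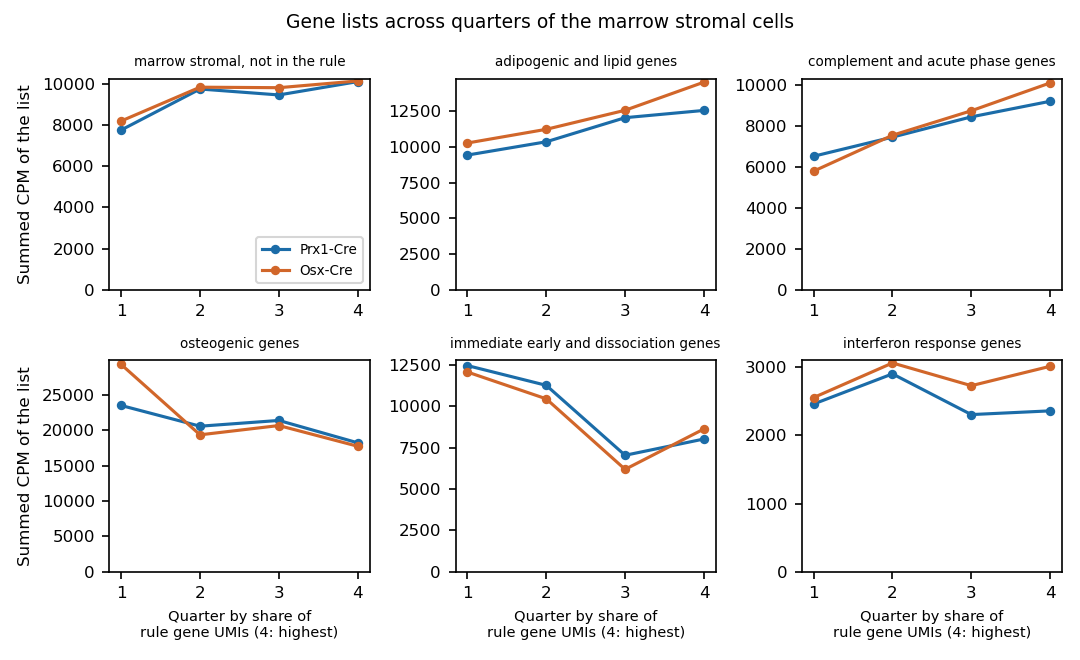
Summed CPM of 6 gene lists (vertical axes, from 0) in 4 equal groups of the marrow stromal cells ordered by their share of selection gene UMIs (horizontal axis, 4 is the highest), in blue for Prx1-Cre and orange for Osx-Cre. Complement genes go up across the groups (6520 to 9205 CPM in Prx1-Cre) and osteogenic genes end lower than they begin (23519 to 18237 CPM), while interferon response genes have no order.

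The same rule was applied to the 16-week libraries, which came from other mice (Prx1-Cre; Rosa26 Ai9 with Z24fl/+ as control or Z24fl/fl as CKO) and took no part in the calls above. It selected 1753 of 2068 control cells and 2122 of 2362 CKO cells, by the labels, whereas the methods of the study attach the cell numbers to the genotypes the other way round. The Zmpste24 levels given above were lower in the library labelled CKO. Of the 661 higher genes other than the 7 selection genes, 496 (75.04%) were at least 2-fold higher in control marrow stromal cells, 392 (59.3%) in CKO ones and 357 (54.0%) in both. Over all 5386 genes the same shares were 12.4% and 9.56%. Of the 385 lower genes, 298 (77.4%) were at least 2-fold lower in control and 254 (66.0%) in CKO, compared with 7.82% and 6.59% of all genes. Cells chosen by the same 7 genes in other mice thus differed from their other cells in most of the same genes in each library. Haemoglobin genes were an exception in direction, with Hba-a1 at 0.167 and 0.209 times the level of other cells at 16 weeks.

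The 2 lines were compared last, with the Prx1-Cre line over the Osx-Cre line. The same rule chose the cells in both libraries, so the 2 groups were in part alike from the outset. Marrow stromal cells took a smaller share of the Prx1-Cre library (57.4%) than of the Osx-Cre library (71.4%), beside 158 against 72 cells with chondrocyte markers, 73 against 1 with periosteal markers and 98 in each with osteoblast markers. A share of sorted cells also moves with how many of the other cells were released and sorted, and with 1 library a line these cannot be told apart.

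Within the marrow stromal cells the lines were close. Of 3063 genes with 50 or more UMIs, 17 (0.555%) were at least 2-fold higher in Prx1-Cre and 24 (0.784%) at least 2-fold higher in Osx-Cre, with a median log2 ratio of −0.01. Over the same genes in the other cells, 73 were higher and 39 lower. The other cells also differed in makeup between the libraries, as given above, and the part of that in these counts was not tested. Single cells carried part of these calls: without the 1 cell with most UMIs of each gene in each library, 12 of the 17 and 21 of the 24 kept a 2-fold ratio. In the other cells, 4 of the 17 and 7 of the 24 differed 2-fold the same way. Genes that kept their ratio without that cell and were under 2-fold in the other cells numbered 9 and 14.

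None of the 14 stromal genes outside the rule differed 2-fold between the lines, and their median log2 ratio was −0.05. The largest was that of Serpina12, an adipokine, at 639 CPM in Prx1-Cre and 358 CPM in Osx-Cre, a log2 ratio of 0.82. The 7 selection genes had log2 ratios between −0.28 (Kng1) and 0.23 (Lepr). The same threshold on these genes chose the cells of both libraries, so their closeness describes the selection. Of the other lists, the adipogenic list had 1 gene called (Fabp4, lower), the osteogenic list 2 (Col1a1 and Bglap2, lower), the chemokine list 1 (Ccl2, higher), the BMP and Wnt list 1 (Wnt4, lower) and the matrix list 1 (Lum, higher). No gene was called among the 11 niche, 13 transcription factor, 15 complement, 14 interferon, 6 insulin-like growth factor, 14 immediate early and 6 glucocorticoid response genes with enough UMIs. Of the cell cycle, Hox and prelamin lists only 1 of 15, 3 of 17 and 3 of 10 genes had enough UMIs, and 0 were called. Of the marker lists, the pericyte list had 1 gene lower (Rgs5), the osteoblast list 1 lower (Bglap2) and the myeloid list 4 higher. Rgs5, a pericyte gene, stood at 31.1 and 77.8 CPM in marrow stromal cells and at 98.2 and 519 CPM in the other cells, and its part in the other values was not tested. Sp7 and Prrx1, whose sequences drive the Cre transgenes, stood at 31.1 and 31.1 CPM and at 183 and 169 CPM.

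Among genes that kept their ratio without the top cell and were under 2-fold in the other cells, Ccl2, a chemokine for monocytes, had the highest ratio in favour of Prx1-Cre. It stood at 643 CPM in Prx1-Cre, from 351 UMIs in 78 cells, and at 146 CPM in Osx-Cre, from 75 UMIs in 42 cells, a ratio of 4.41 (exact 95% counting interval 3.42 to 5.73). One Prx1-Cre cell held 86 of these UMIs and the 5 highest cells 182 (51.9%), against 32 in the 5 highest Osx-Cre cells (42.7%), and the log2 ratio was 1.86 without the top cell of each library. In the other cells Ccl2 was at 8.93 and 5.70 CPM. Timp3, an inhibitor of matrix proteases, stood at 108 and 27.2 CPM, a ratio of 3.97 (2.19 to 7.69). In other cells it stood at 248 and 124 CPM, the same way and just under 2-fold (1.93-fold with 10 CPM added). Lum, the matrix proteoglycan lumican, stood at 216 and 97.3 CPM. Cytl1, a cartilage cytokine, does not belong to these genes, since it differed over 2-fold the same way in the other cells (2665 and 1161 CPM, log2 ratio 1.19). In marrow stromal cells it stood at 128 and 15.6 CPM, with 39 of its 70 Prx1-Cre UMIs in 1 cell.

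Of the genes higher in Osx-Cre, St6galnac2, a sialyltransferase, stood at 23.8 CPM in Prx1-Cre and 107 CPM in Osx-Cre, a ratio of 4.49 in favour of Osx-Cre (2.42 to 8.97), and was hardly detected in the other cells, with 2 and 4 UMIs. Wnt4, a Wnt ligand, stood at 51.3 and 119 CPM and was found in 26 and 54 cells. Tgtp2, an interferon-inducible gene with near copies, stood at 42.1 and 113 CPM, and Ctgf, a matricellular growth factor, at 67.7 and 169 CPM. Angpt4, an angiopoietin, stood at 42.1 and 103 CPM, and at 10.9 and 51.3 CPM in the other cells. Fabp4, a fatty acid binding protein, stood at 29.3 and 95.3 CPM in marrow stromal cells and, 2-fold the same way, at 38.7 and 96.9 CPM in the other cells, with 37 of its 49 Osx-Cre UMIs in 5 cells.

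Several of the genes called differed between the libraries in all cells, not in marrow stromal cells alone. Rps27 stood at 1763 and 710.0 CPM in marrow stromal cells and 2347 and 897 CPM in the others, and its near copy Rps27rt went the other way, at 417 and 1089 CPM, and 365 and 1355 CPM. Gstp1, a glutathione transferase, stood at 54.9 and 200.4 CPM in marrow stromal cells and 27.8 and 139 CPM in the others. Itm2a was at 379 and 138 CPM, and 385 and 143 CPM. Gm42418 and AY036118, which overlap ribosomal RNA, were 2.15- and 2.24-fold higher in Osx-Cre. For these genes the ratio between the lines was not particular to marrow stromal cells, and near copies may split reads differently between libraries.

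Other calls rested on 1 cell. All but 2 of the 255 UMIs of Msmp in Prx1-Cre marrow stromal cells came from 1 cell, Osx-Cre had 0 UMIs, which allows up to 5.84 CPM, and both 16-week libraries had 0. The other cells of Prx1-Cre held 105 Msmp UMIs (104 CPM), all in 6 of 423 cells (1.42%), and those of Osx-Cre held 0. Ngp, Camp, S100a8 and S100a9 came mostly from the Prx1-Cre cell with myeloid RNA described above and, in Osx-Cre, also from 1 cell each, and their ratios were below 2-fold without the top cell of each library. Bglap2 and Col1a1 came to 178 of 265 and 142 of 290 UMIs in a single Osx-Cre cell of 2533 UMIs, and without the top cells their log2 ratios were 0.33 and −0.17. These 3 cells met the selection rule with shares of 1.25%, 1.86% and 2.96%. Scrublet, a doublet caller, did not mark them, and the log2 ratios of Msmp, Ngp and Bglap2 were 5.58, 2.67 and −1.18 after its calls were removed.

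**Figure D5:**
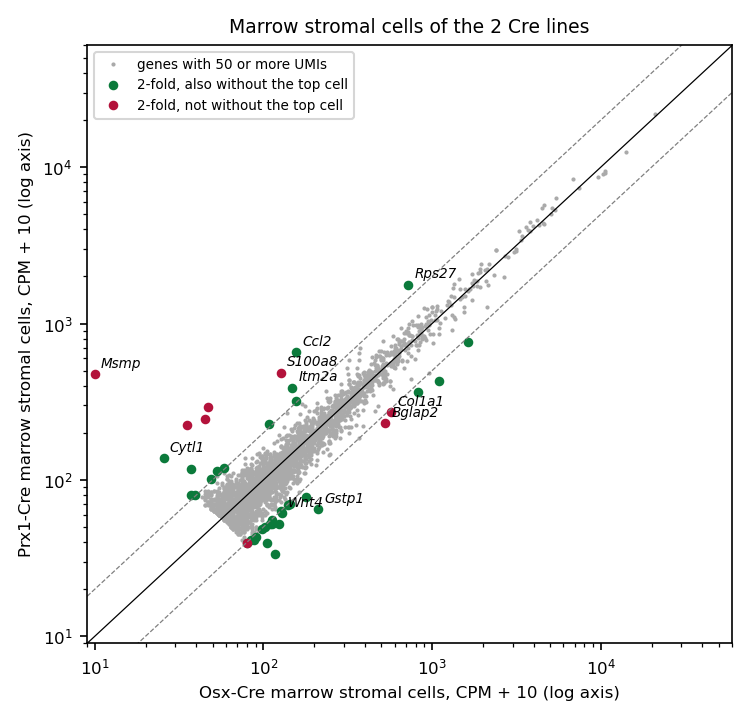
CPM + 10 of each gene with 50 or more UMIs in marrow stromal cells of Prx1-Cre (vertical log axis) against Osx-Cre (horizontal log axis), with dashed lines at 2-fold, green for genes at 2-fold also without the cell with most of their UMIs and red for those that are not. The 3063 genes hug the diagonal, with 17 above and 24 below the 2-fold lines, and Msmp stands alone at the left through 1 cell.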

How the data were processed

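Single-cell RNA was prepared with the 10X Genomics 3′ kit and the authors aligned and counted reads with Cell Ranger (3.1.0 per the file headers) on mm10, so the deposited values are counts of UMIs per gene and cell, not normalized. The 2 libraries at 8 weeks held 1554098 (Prx1-Cre) and 1040275 (Osx-Cre) UMIs in 999 and 785 barcodes over 31053 genes. Barcodes with 200 or more genes were kept (993 and 782), which is more cells than the study describes for these libraries. Groups came from the labels, and 0 sample columns were unmatched.

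UMIs were summed over marrow stromal cells and over all other cells, scaled to CPM and compared as log2 ratios with 10 CPM added, for genes with 50 or more UMIs summed over the groups compared. A gene was called at 2-fold. With 1 library a line no test was possible, so levels have exact Poisson and shares exact Clopper-Pearson 95% intervals. For levels, a count of 0 UMIs was read as up to 3 counts. Ratios between the lines given with intervals are ratios of CPM without the added CPM. Other cells were assigned to the list (chondrocyte, periosteal, osteoblast or pericyte markers) with the highest share of their UMIs, where that was 1% or more. Detection was also compared after thinning cells to 500 UMIs, leaving out shallower ones.

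The members, the 30 gene lists and the markers were chosen with earlier results of these data known, so no list is independent evidence of its direction. Genes were named by a rule: the 7 selection genes, the 15 highest and 10 lowest ratios against other cells, the 10 highest and 10 lowest between the lines, the extremes of each list, the 10 most abundant genes and Zmpste24. Other list members were named as examples after their values were seen. Scrublet (scanpy 1.11.5) called 3 and 4 doublets (0.302% and 0.512%), 1 and 1 of them marrow stromal cells, and these were kept in the values above. Python 3.11.15, NumPy 2.4.6, SciPy 1.17.1 and matplotlib 3.10.9 were used, and the comparison was tested on simulated data. Alternatives changed the selection threshold and genes, the gene and cell minimum, the added CPM, the scaling, the fold, the depth and the cells left out.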

Additional observations from a re-analysis of the deposited data

Results flagged for a closer look

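In 2 genes the ratio of marrow stromal over other cells was past 2-fold in opposite directions in the 2 libraries. Pcna, a DNA replication clamp, had a log2 ratio of −1.09 in Prx1-Cre and 1.10 in Osx-Cre, from 16 and 31 UMIs in marrow stromal cells and 74 and 12 UMIs in the other cells. Sod3, the extracellular superoxide dismutase, had a log2 ratio of −1.71 in Prx1-Cre and 1.01 in Osx-Cre, from 18 and 15 UMIs in marrow stromal cells and 132 and 5 UMIs in the others. By level, Sod3 was close between the lines in marrow stromal cells (33.0 and 29.2 CPM) and far apart in the other cells (131 and 9.50 CPM). Pcna differed in both, at 29.3 and 60.3 CPM in marrow stromal cells and 73.4 and 22.8 CPM in the other cells. With 1 library a line, these differences were not tested.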

How the results depend on the processing

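The share of marrow stromal cells stayed within its counting interval in 13 of 18 values under other settings. It was 67.3% in Osx-Cre with a threshold of 2%, 47.9% in Prx1-Cre and 60.0% in Osx-Cre without Cxcl12 in the rule, and 51.0% and 66.1% with a minimum of 500 genes. Counts of genes higher and lower than in other cells were 310 and 203 with 50 CPM added, 271 and 211 with a minimum of 200 UMIs, 1205 and 636 at 1.5-fold and 336 and 227 at 3-fold, and 436 were higher with the mean of per-cell CPM. Counts higher and lower in Prx1-Cre than in Osx-Cre were 10 and 6 with 50 CPM added, 6 and 5 with a minimum of 200 UMIs, 117 and 150 with a minimum of 1 UMI, 91 and 153 at 1.5-fold and 8 and 2 at 3-fold. With a threshold of 0.5% they were 26 and 16, so that the higher count became the larger, and 12 of the 24 lower genes were kept. They were 10 and 19 with 2%, and 10 and 22 without Cxcl12, where 7 of the 17 higher genes were kept. With 1 CPM added they were 25 and 40. Without the cells rich in osteoblast markers they were 13 and 13, with 10 of the 17 and 9 of the 24 kept.

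List medians kept their sign except that of prelamin A processing genes, at −0.15 with a minimum of 200 UMIs and −0.017 with median ratio scaling, and no Hox median could be had with a minimum of 200 UMIs. Gene by gene, the settings were run for 238 genes over other cells. Between the lines they were run for 20 genes, the 10 highest and 10 lowest ratios. Among the genes run, 5 reversed their direction. The log2 ratio over other cells was −2.20 for Camp, −2.41 for Ngp, −1.11 for S100a8 and −1.67 for S100a9 with a threshold of 2%, and −0.60, −0.90, −0.74 and −0.66 without Cxcl12. It was −0.076 for Ngp without cells rich in blood or endothelial markers, and also −0.076 without the top cell of the gene. Between the lines the log2 ratio of Camp, Ngp and S100a8 was −0.036, −0.50 and −0.081 with 2%, and that of Camp, Ngp, S100a8 and S100a9 was −1.84, −2.00, −1.26 and −1.02 without Cxcl12. That of Camp and Ngp was −0.21 and −0.48 without the blood or endothelial marker cells and −0.030 and −0.47 without the top cell. Bglap2 was at 0.33 without its top cell and 0.36 without the cells rich in osteoblast markers. Some genes called and named above kept their direction but were under 2-fold with 50 CPM added. Against other cells these were Pdgfra, Pparg, Ptn, Tgfb1, Sp7, Tnfsf11, Tnfrsf11b, Bmp3, Top2a, Tagln, Plvap, Hba-a2, Hoxa9 and Hoxa10. Irf1, Scd1 and Bglap3, which were not called, also went under 2-fold in the mean of both libraries. Of the 20 genes run between the lines they were Angpt4, Ctgf, Fabp4 and Tgtp2. Wnt4, Rgs5, Lum and Col1a1 were called but not among these 20, so their ratios with 50 CPM added are not given. Prrx1, Notch3, Col4a2 and Limch1 were under 2-fold with the mean of per-cell CPM. Between the lines, Fabp4 and Tgtp2 were under 2-fold with a threshold of 0.5%, and Angpt4, Ctgf and Tgtp2 without the cells rich in osteoblast markers. The top cell, shared barcode and osteoblast marker alternatives were chosen after seeing the data. No paired analysis was possible because each line had 1 library. Genes with few UMIs are limited by depth, and the cause of the other shifts was not tested.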
